A study of Mus musculus with 42 samples.

Results

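Matrix metalloproteinases are zinc enzymes that cut collagen, elastin, gelatin and other parts of the tissue matrix, as well as cytokines and receptors at the cell surface. The genes described here are Mmp9, Mmp12, Mmp13, Mmp14, Mmp19 and Mmp27, the tissue inhibitors Timp1 and Timp2, and Adam8, a membrane-bound sheddase of the related ADAM family. They were chosen by name, as the rows of the gene count table whose identifier maps to these symbols, and make up 9 of 37310 genes in the table. All 9 had enough counts to enter the test, which covered 11624 genes.

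Most metalloproteinases are made as inactive precursors and are switched on by removal of a propeptide, so that a transcript level is not an enzyme activity. TIMPs bind the active site and block it, and Timp2 also takes part with membrane-bound MMP14 in the activation of pro-MMP2. Macrophages are a known source of the gelatinase MMP9 and of MMP12, which is also called macrophage elastase.

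The cells were mouse bone marrow-derived macrophages, matured from marrow cells in medium conditioned by L929 fibroblasts. Libraries labelled KO came from mice with floxed Irf5 alleles (Irf5 flox/flox) and LysM-Cre, in which Cre is expressed from the Lyz2 locus of myeloid cells, and libraries labelled WT came from wild-type mice; the labels give no age. Irf5 encodes a transcription factor that acts downstream of Toll-like receptors. Cells of each genotype were sequenced before treatment (Control 0h), or after 2 h or 24 h as Control, with palmitate, a saturated fatty acid, or with LPS, the bacterial lipopolysaccharide sensed by TLR4. This gave 14 groups of 3 libraries, 42 in all, and each treatment was compared with the Control group of the same genotype and time. The labels do not say that the 3 libraries of a group came from separate animals or cultures, so that p-values measure the spread between these libraries, which may be technical.

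Total counts were between 2848793 and 7743442 per library (median 5625399), at which 3 counts equal 0.387 to 1.05 CPM, the count scaled to the library total. All 42 pairs of libraries within a group were further apart than counting noise (chi-square per degree of freedom 1.93 to 9.32). The summed level of 6 macrophage markers lay between 4710 and 8747 CPM, and Tnf was at 1988 CPM in WT with LPS at 2 h against 72.9 CPM in its Control. None of 3 B cell and 3 T cell markers, and 2 of 3 dendritic cell markers, had enough counts to be tested. Irf5 was not lower in the libraries labelled KO: it lay between 209.5 and 388.9 CPM in WT and between 267 and 430.5 CPM in KO, and passed the test as higher in KO in 4 of 7 conditions. A count over the whole gene does not show whether the floxed part is absent. Every difference between genotypes is therefore one between libraries as labelled.

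Mmp13 and Mmp14 rose within 2 h of LPS and were still raised at 24 h, 3.00-fold and 3.03-fold for Mmp14 in WT. Mmp9 was highest at 24 h, at 11.1-fold over Control in WT, and Mmp12 and Timp2 fell at 24 h by 4.403-fold and 2.17-fold in WT. These directions were shared by both genotypes. At 2 h, 4 of 9 genes passed the test in WT (3 higher, 1 lower) and 3 of 9 in KO (all higher). Over all genes the test called 23.1% in WT (14% higher, 9.1% lower) and 23.9% in KO (14.7% higher). At 24 h, 7 of 9 passed in WT (4 higher, 3 lower) and 7 of 9 in KO (3 higher, 4 lower), against 39.5% of all genes in WT (19.6% higher, 19.9% lower) and 40.9% in KO (19.9% higher, 21% lower). The median log2 fold change of the 9 genes was 0.15 in WT and 0.18 in KO at 2 h, and -0.16 and -0.13 at 24 h; over all genes tested it was between -0.011 and -0.0094. LPS and Control libraries did not overlap at 2 h for 5 of 9 genes in WT and 4 of 9 in KO, against 35.2% and 34.1% of all genes tested. For 24 h this held for 7 of 9 in each genotype, against 48.1% of all genes in WT and 50.2% in KO. The LPS effect differed between 2 h and 24 h for 4 of 9 genes in WT and 6 of 9 in KO, against 32.6% and 33.4% of all genes. A gene passed when its adjusted p in edgeR's quasi-likelihood test, corrected over all genes, was under 0.05. In these bulk samples fewer cells of a type and less RNA per cell cannot be told apart.

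**Figure D1:**
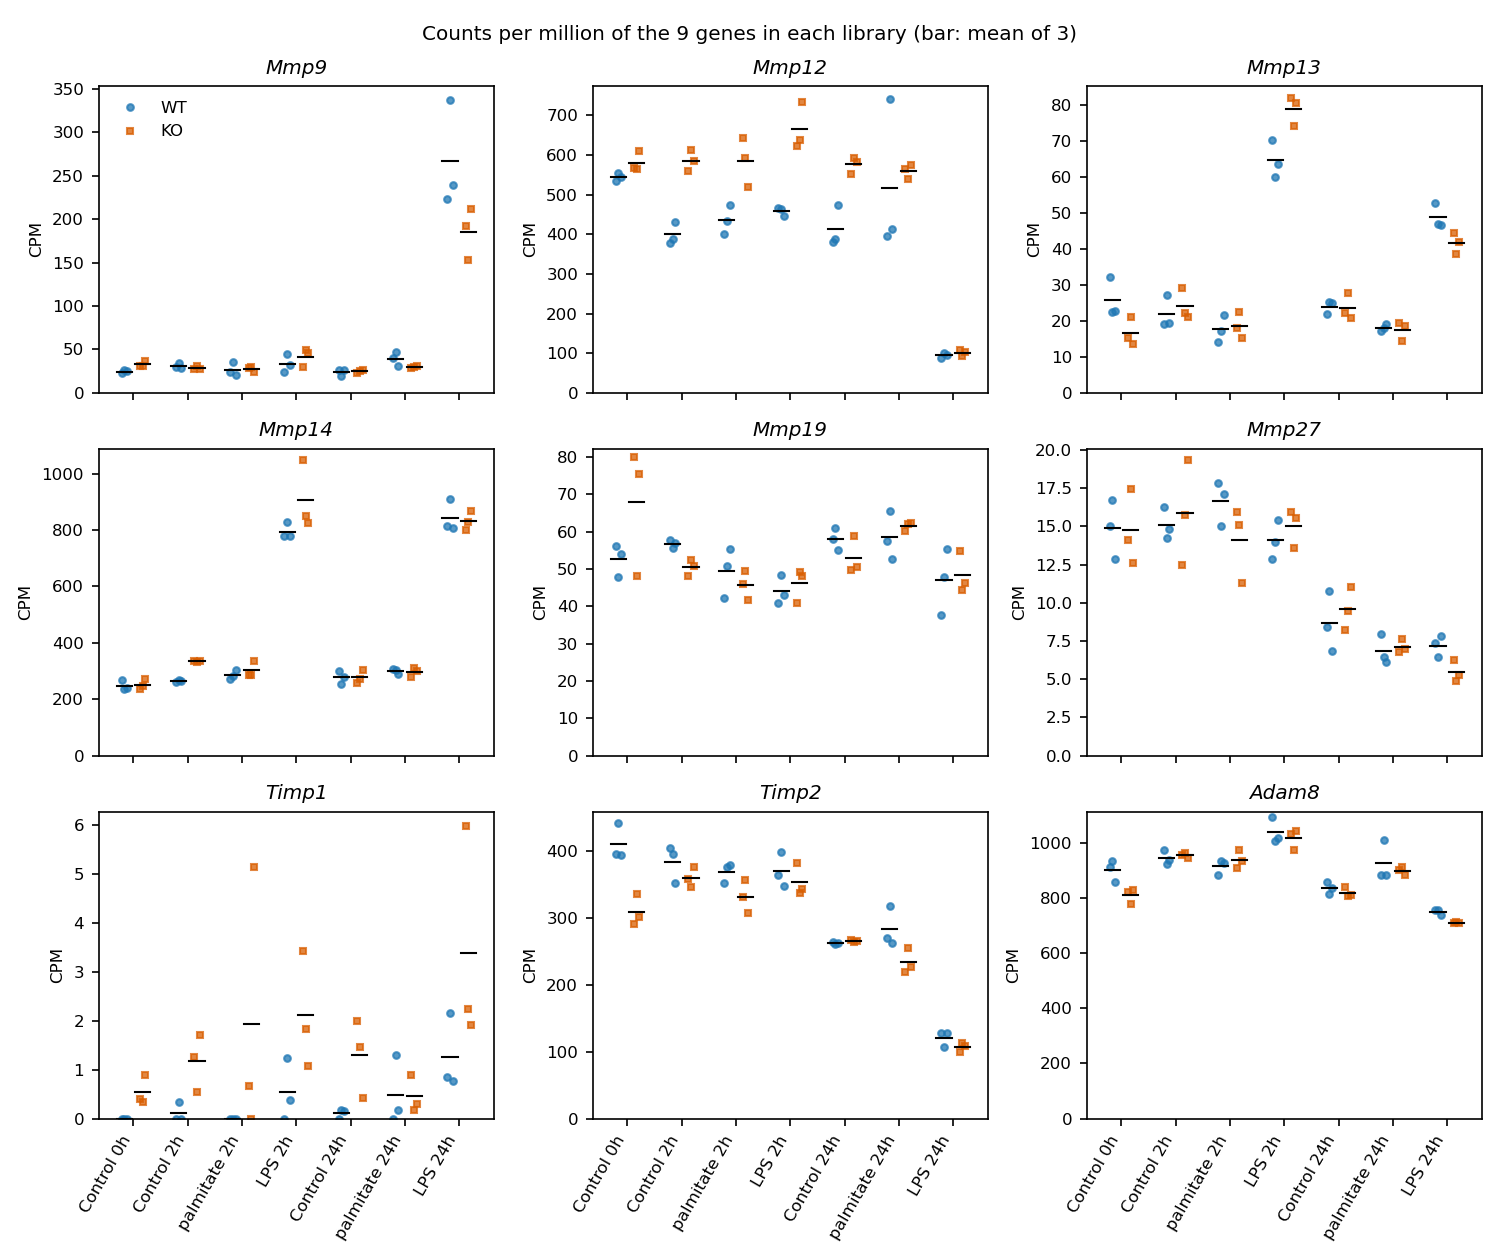
Level of each of the 9 genes in CPM (vertical axis, from 0) by condition; each point is 1 of the 42 libraries, WT and KO differ in colour, and bars are means of 3. Mmp9 in the 6 libraries with LPS for 24 h lies between 153 and 338 CPM, above all others, and Mmp12 in the same libraries lies between 88.8 and 108 CPM, below all others.

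Mmp13, a collagenase that cleaves fibrillar collagen, lies on chromosome 9 (GRCm38, 7272514 to 7283331, plus strand, ENSMUSG00000050578). In WT it was at 19.2, 27.3 and 19.4 CPM in Control at 2 h and at 70.5, 60.01 and 63.7 CPM with LPS. All LPS libraries were above all Control libraries, a 2.93-fold rise (log2 fold change 1.55, SE 0.15, edgeR adjusted p = 6.64e-12). In KO the values were 29.1, 22.2 and 21.04 CPM in Control and 82.0, 74.2 and 80.7 CPM with LPS, a 3.27-fold rise (1.71, SE 0.15, adjusted p = 1.63e-13). The groups again stood apart with no overlap. At 24 h the WT libraries were at 21.9, 25.2 and 24.9 CPM in Control and 52.9, 47.0 and 46.7 CPM with LPS (1.01, SE 0.15, adjusted p = 2.51e-07), and KO at 22.1, 27.9 and 20.95 against 44.6, 38.7 and 42.02 CPM (0.82, SE 0.15, adjusted p = 1.59e-05). The change of the LPS effect from 2 h to 24 h passed in KO (-0.88, SE 0.22, adjusted p = 0.00103). In WT it was -0.54 and lay at the limit (adjusted p = 0.0523), and it passed under each of the other 4 settings (adjusted p = 0.0230 to 0.0498).

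The promoter of Mmp13 is shown because the gene was among those that rose early. RefSeq gives 250 bases before and 50 after a gene start; 7 of the 9 genes had an entry (8 entries, Mmp12 with 2), while Mmp9 and Mmp19 had none. The entries were searched on both strands for AP-1 (TGANTCA), the interferon-stimulated response element (ISRE), a PU.1-type ETS site (GAGGAAGT) and the NF-kappaB motif, and 3 of the 8 entries held a match. The sequence of Mmp13 reads 5′ to 3′ on the plus strand (GRCm38.p6, chr9:7272264-7272563), and its capitals mark an ISRE match on the reverse strand, which begins 146 bases before the start, and an AP-1 match that begins 35 bases before it:

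Mmp13: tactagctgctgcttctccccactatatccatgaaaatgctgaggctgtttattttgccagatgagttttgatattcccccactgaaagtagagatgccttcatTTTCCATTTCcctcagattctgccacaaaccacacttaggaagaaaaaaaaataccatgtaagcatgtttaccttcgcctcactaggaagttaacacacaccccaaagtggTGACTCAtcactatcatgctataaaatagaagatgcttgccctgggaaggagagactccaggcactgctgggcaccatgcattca

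Of 32817 mouse promoters of this length, 7.81% held the AP-1 letters, 3.43% the ISRE, 3.203% the ETS letters and 4.50% the NF-kappaB motif. The AP-1 letters are their own reverse complement, and none of the matches overlapped another motif. A match describes the letters and does not show that a factor binds there.

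Mmp14 encodes MT1-MMP, a membrane-anchored collagenase (chromosome 14, 54431612 to 54445364, plus strand, ENSMUSG00000000957). WT libraries were at 260.1, 270.0 and 264 CPM in Control at 2 h and at 778, 828 and 778 CPM with LPS, a 3.00-fold rise (log2 fold change 1.59, SE 0.08, adjusted p = 8.68e-24). KO libraries were at 335, 331 and 336 CPM in Control and 1047, 849 and 824 CPM with LPS, a 2.71-fold rise (1.44, SE 0.07, adjusted p = 3.18e-22). The groups did not overlap. At 24 h, WT went from 301, 255 and 280.2 CPM to 814, 909 and 809 CPM (1.60, SE 0.07, adjusted p = 4.50e-24) and KO from 259, 274 and 303 CPM to 802, 827 and 869 CPM (1.58, SE 0.07, adjusted p = 6.92e-24). The rise of Mmp14 was 1.59 at 2 h and 1.60 at 24 h in WT and 1.44 and 1.58 in KO, on the log2 scale. Its promoter, shown for comparison with that of Mmp13, held none of the motifs (GRCm38.p6, chr14:54431348-54431647, plus strand):

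Mmp14: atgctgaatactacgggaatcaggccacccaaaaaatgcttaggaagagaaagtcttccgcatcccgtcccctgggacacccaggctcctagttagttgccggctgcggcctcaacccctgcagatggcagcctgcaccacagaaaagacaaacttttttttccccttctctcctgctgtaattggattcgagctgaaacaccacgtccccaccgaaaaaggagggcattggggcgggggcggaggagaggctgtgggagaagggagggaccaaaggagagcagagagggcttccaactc

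Mmp9, the gelatinase B that degrades denatured collagen and type IV collagen, lies on chromosome 2 (164940780 to 164955850, plus strand, ENSMUSG00000017737). At 24 h it was at 26.7, 19.5 and 26.2 CPM in WT Control and at 224, 338 and 239 CPM in WT with LPS (log2 fold change 3.48, SE 0.16, adjusted p = 7.28e-24). In KO it was at 23.1, 25.2 and 25.8 CPM in Control and 193, 153 and 211 CPM with LPS, a 7.49-fold rise (2.90, SE 0.16, adjusted p = 7.13e-21). Every LPS library at 24 h was above every Control library of either genotype. At 2 h the WT libraries overlapped, with 29.6, 34.6 and 29.2 CPM in Control and 24.0, 44.8 and 31.9 CPM with LPS (0.15, SE 0.18, adjusted p = 0.630). In KO, 27.7, 31.5 and 27.8 CPM in Control and 30.4, 49.2 and 46.1 CPM with LPS also overlapped, and the difference just passed (0.57, SE 0.18, adjusted p = 0.0162). That call was lost without KO Control 2h library 1 or 3 or KO LPS 2h library 2 or 3 (0.45 to 0.54). The 24 h effect exceeded the 2 h effect by 3.33 in WT (SE 0.25, adjusted p = 6.61e-16) and by 2.33 in KO (SE 0.25, adjusted p = 5.55e-11) on the log2 scale.

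Mmp9 is also a gene of granulocytes and osteoclasts, so markers of both were set beside it. The summed level of 8 granulocyte markers was lower with LPS at 24 h, at 6.78 to 16.1 against 28.99 to 38.7 CPM in WT and at 21.02 to 39.1 against 75.3 to 120.3 CPM in KO. Ly6g, which defines neutrophils, was at 0 in 40 of 42 libraries, and Cxcr2, Camp, Prtn3 and Elane were at 0 in 3, 5, 17 and 22. Ngp, Ltf and Mpo had counts in every library. The sum of 6 osteoclast markers was higher with LPS at 24 h, at 119.7 to 153 against 32.002 to 38.9 CPM in WT and at 139 to 147 against 44.3 to 46.7 CPM in KO. Acp5, a phosphatase also made by macrophages, led this sum, and Ctsk also had counts in every library. Dcstamp, Ocstamp, Calcr and Oscar were at 0 in 2, 9, 37 and 39 of 42 libraries. The part of such cells in the level of Mmp9 was not tested.

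**Figure D2:**
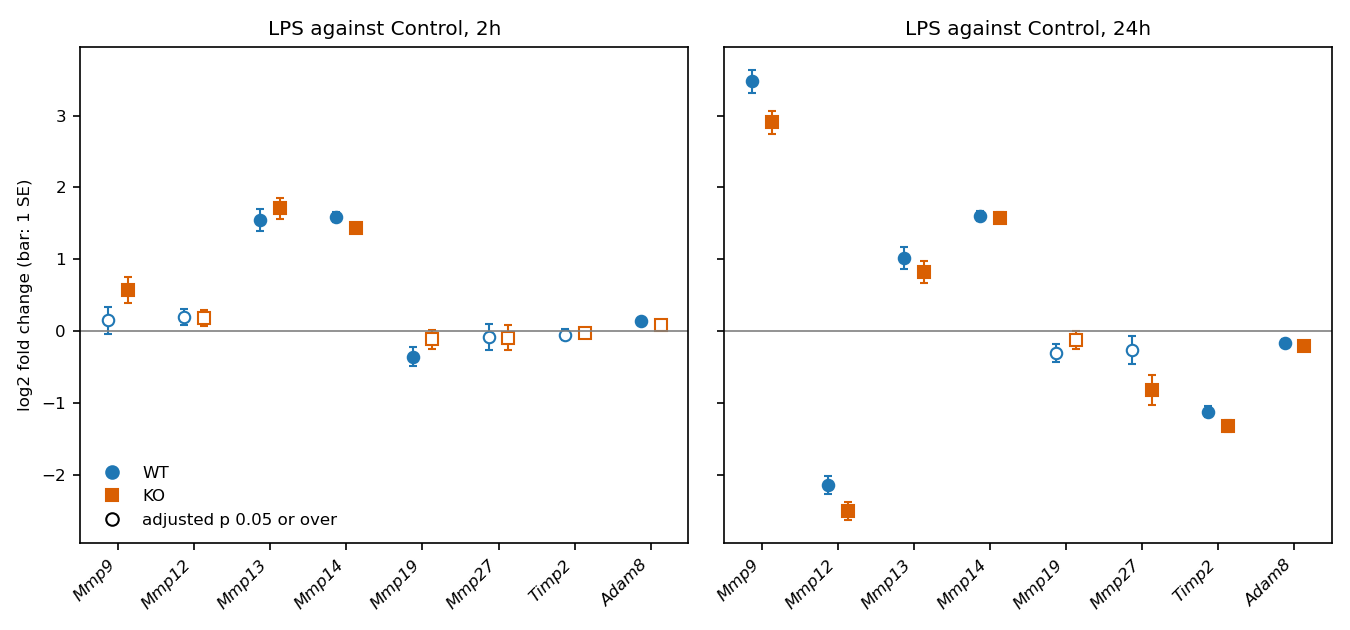
Log2 fold change of LPS against Control for 8 of the 9 genes (Timp1, with few counts, is left out) at 2 h and 24 h in WT and KO, with bars of 1 SE from edgeR and open symbols where the test was not passed. Mmp9 lies at 0.15 at 2 h and 3.48 at 24 h in WT, Mmp12 at 0.20 and -2.14, and Mmp13 and Mmp14 lie above 0 at both times.

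Mmp12, the macrophage elastase, lies on chromosome 9 (7344381 to 7369499, plus strand, ENSMUSG00000049723) and overlaps Mmp1b, which had 0 counts in every library. At 24 h it was at 382, 388 and 474 CPM in WT Control and at 88.8, 99.5 and 94.8 CPM with LPS (log2 fold change -2.14, SE 0.13, adjusted p = 3.42e-20). KO libraries were at 553, 592 and 583 CPM in Control and 108, 93.2 and 103 CPM with LPS, 5.67-fold lower (-2.50, SE 0.12, adjusted p = 4.89e-23). With LPS the libraries of both genotypes thus lay in 1 narrow range, below every other library. At 2 h Mmp12 did not pass in WT (0.20, SE 0.11, adjusted p = 0.241) or KO (0.18, SE 0.11, adjusted p = 0.262). The effect at 24 h differed from that at 2 h by -2.34 in WT (SE 0.17, adjusted p = 2.75e-16) and by -2.69 in KO (SE 0.17, adjusted p = 1.21e-18).

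Mmp12 has a pair of annotated starts, and their promoters are shown because each held a motif that the other lacked. The first (GRCm38.p6, chr9:7344147-7344446, plus strand) held a PU.1-type match on the reverse strand, 88 bases before the start, and the other (chr9:7347124-7347423, plus strand) an AP-1 match 44 bases before it; capitals mark the matches:

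Mmp12, first start: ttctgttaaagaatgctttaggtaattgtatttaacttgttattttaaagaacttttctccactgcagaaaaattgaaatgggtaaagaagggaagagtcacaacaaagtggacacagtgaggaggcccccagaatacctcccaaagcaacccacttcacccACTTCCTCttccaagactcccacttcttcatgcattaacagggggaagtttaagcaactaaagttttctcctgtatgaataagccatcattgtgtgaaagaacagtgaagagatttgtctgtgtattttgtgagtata
Mmp12, other start: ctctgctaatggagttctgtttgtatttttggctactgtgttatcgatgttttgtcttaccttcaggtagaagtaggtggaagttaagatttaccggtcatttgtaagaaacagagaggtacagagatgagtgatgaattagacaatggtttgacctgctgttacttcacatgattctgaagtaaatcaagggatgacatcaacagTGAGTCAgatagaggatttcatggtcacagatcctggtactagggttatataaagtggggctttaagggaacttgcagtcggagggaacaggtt

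Counts per gene do not show which start was used.

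Mmp19 and Mmp27 passed in 1 LPS comparison each. Mmp19, a secreted enzyme that acts on basement membrane proteins (chromosome 10, 128790910 to 128800824, plus strand, ENSMUSG00000025355), overlaps Tmem198b and Gm47093 on the minus strand, and it is not stated whether strand was used in counting. It stayed between 37.8 and 80.1 CPM in all 42 libraries. In WT at 2 h it was at 57.9, 55.6 and 56.9 CPM in Control and 40.8, 48.5 and 43.1 CPM with LPS (log2 fold change -0.35, SE 0.13, adjusted p = 0.0444). This call was lost without WT LPS 2h library 1 or 3 or any of the 3 WT Control 2h libraries (log2 fold changes -0.37 to -0.31). The other LPS comparisons of Mmp19 did not pass, with -0.11 in KO at 2 h (adjusted p = 0.617), -0.30 in WT at 24 h (adjusted p = 0.0542) and -0.13 in KO at 24 h (adjusted p = 0.454). The WT difference at 24 h lay near the limit and passed with DESeq2-type size factors, without the filter and in a fit of those groups alone (adjusted p = 0.0264 to 0.0484).

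Mmp27, a stromelysin-like member whose substrates are little known, lies on chromosome 9 (7571396 to 7581885, plus strand, ENSMUSG00000070323) and was low. In KO at 24 h it fell from 8.19, 9.48 and 11.04 CPM in Control to 6.26, 4.86 and 5.27 CPM with LPS (log2 fold change -0.82, SE 0.20, adjusted p = 0.000864), with no overlap. In WT the libraries at 8.42, 10.8 and 6.85 CPM in Control and 7.36, 6.45 and 7.81 CPM with LPS overlapped (-0.26, SE 0.20, adjusted p = 0.323). The genotypes were not shown to differ in this effect (difference -0.56, 95% interval -1.12 to 0.0031, adjusted p = 0.930). At 2 h Mmp27 was at -0.08 in WT and -0.09 in KO, and neither passed.

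Timp2, the inhibitor that is also a partner of MMP14, lies on chromosome 11 (118301069 to 118355740, minus strand, ENSMUSG00000017466), and Cep295nl on the same strand overlaps it. At 24 h it was at 264, 261 and 263 CPM in WT Control and 128, 106 and 128 CPM with LPS (log2 fold change -1.12, SE 0.08, adjusted p = 4.39e-17). KO libraries were at 267, 263 and 265 CPM in Control and 99.0, 112 and 108 CPM with LPS, 2.49-fold lower (-1.32, SE 0.08, adjusted p = 1.25e-19). Control libraries lay within a few CPM of each other and LPS libraries all below them. At 2 h there was no call in WT (-0.05, adjusted p = 0.693) or KO (-0.03, adjusted p = 0.846). The change of effect between times was -1.07 in WT (SE 0.11, adjusted p = 1.65e-11) and -1.29 in KO (SE 0.11, adjusted p = 5.80e-14). At 24 h of LPS the transcript of this inhibitor was thus lower while those of Mmp9, Mmp13 and Mmp14 were higher, in libraries of both genotypes. The promoter of Timp2 is shown as that of a gene that fell, and it held none of the motifs (GRCm38.p6, chr11:118355362-118355661, printed 5′ to 3′ on the minus strand):

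Timp2: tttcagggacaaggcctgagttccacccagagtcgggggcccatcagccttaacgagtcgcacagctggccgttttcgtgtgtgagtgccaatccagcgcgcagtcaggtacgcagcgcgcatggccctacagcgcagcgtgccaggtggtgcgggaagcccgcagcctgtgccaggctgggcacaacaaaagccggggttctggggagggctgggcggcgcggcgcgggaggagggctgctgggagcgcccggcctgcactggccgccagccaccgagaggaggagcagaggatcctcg

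Timp1, the inducible inhibitor of many metalloproteinases, lies on the X chromosome (20870166 to 20874735, plus strand, ENSMUSG00000001131) within Syn1, which is on the minus strand. It was near the limit of detection, with 43 counts over the 21 WT libraries and 182 over the 21 KO libraries, and with 0 counts in 11 WT libraries and 1 KO library. In WT at 24 h the libraries had 0, 1 and 1 counts in Control and 5, 13 and 5 with LPS. The ratio of the pooled rates was 9.75 (23 against 2 counts, exact 95% interval 2.41 to 85.3, counting error only) and edgeR's adjusted p was 0.0434. The call was lost in DESeq2 (adjusted p = 0.0558) and without any WT Control 24h library or WT LPS 24h library 2 (adjusted p = 0.0851 to 0.177). In KO, 8, 8 and 3 counts in Control and 40, 12 and 13 with LPS gave a ratio of 2.86 (interval 1.69 to 5.05) that did not pass (adjusted p = 0.125) except in a fit of those groups alone (adjusted p = 0.0262). At 2 h the ratios were 4.91 in WT (interval 0.981 to 47.5) and 1.42 in KO (interval 0.743 to 2.72).

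Counts of Timp1 were higher in KO than in WT in 6 of 7 conditions, and no difference passed the test across all genes; without the filter on low counts those at Control 0h (adjusted p = 0.0292) and palmitate 2h (adjusted p = 0.000221) did. At Control 0h all 3 WT libraries had 0 counts and the KO libraries had 2, 2 and 5, at least 3.71-fold higher against a floor of 3 counts over the group (adjusted p = 0.116). At Control 2h, 0, 2 and 0 counts in WT and 7, 3 and 10 in KO gave a ratio of 10.8 with an adjusted p of 0.348 (interval 2.62 to 95.3). With LPS at 2 h the counts were 0, 6 and 2 in WT and 9, 9 and 5 in KO (ratio 3.11, interval 1.34 to 8.05, adjusted p = 0.526), and the Control 24h ratio was 9.37 (interval 2.26 to 83.0, adjusted p = 0.957). With LPS at 24 h it was 2.75 (interval 1.68 to 4.63, adjusted p = 0.580). With palmitate at 2 h WT had 0 counts and KO 38, of which 34 were in 1 library, at least 11.3-fold higher (adjusted p = 0.100); with palmitate at 24 h both had 8 (ratio 0.95, interval 0.311 to 2.90, adjusted p = 0.993). The intervals cover counting error only and not the spread between libraries. The study's own threshold (unadjusted p under 0.05 and absolute log2 fold change over 1) was applied here to edgeR's p, where the study used DESeq2. Under it Timp1 was called in 4 of the 7 conditions, Control 0h, 2h and 24h and palmitate at 2 h, and no other member was. That rule called 3.3%, 1.71%, 1.19% and 1.37% of all genes there, and 2.1%, 0.989% and 1.5% with LPS at 2 h, palmitate at 24 h and LPS at 24 h.

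Fibroblasts express Timp1, so 7 fibroblast markers (Col1a1, Col1a2, Col3a1, Dcn, Lum, Pdgfra and Pdgfrb) were set beside it. Their sum lay between 0.380 and 60.1 CPM in WT and between 1.16 and 314 CPM in KO libraries. The 2 libraries with most Timp1 counts, KO LPS 24h library 1 with 40 and KO palmitate 2h library 3 with 34, had the 2 highest sums, 177 and 314 CPM. Elsewhere the order differed: WT palmitate 2h library 1 had a sum of 40.9 CPM and 0 Timp1 counts, while KO LPS 24h library 2 had 1.68 CPM and 12 counts and WT LPS 24h library 2 had 4.80 CPM and 13 counts. In WT at 24 h the sum was 1.03 to 4.80 CPM with LPS, where Timp1 had 23 counts, and 2.81 to 46.5 CPM in Control, where it had 2. Dcn was at 0 in 36, Lum in 41 and Pdgfra in 25 of 42 libraries, while Col1a1, Col1a2, Col3a1 and Pdgfrb were at 0 in 9, 15, 14 and 2. Without the 2 libraries with most Timp1 counts the KO total was 108 counts, and the WT total was 43. Of the 15 libraries with a fibroblast marker sum over 40 CPM, 12 were KO and 3 were WT. The part of fibroblast RNA in the level of Timp1 was not tested.

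**Figure D3:**
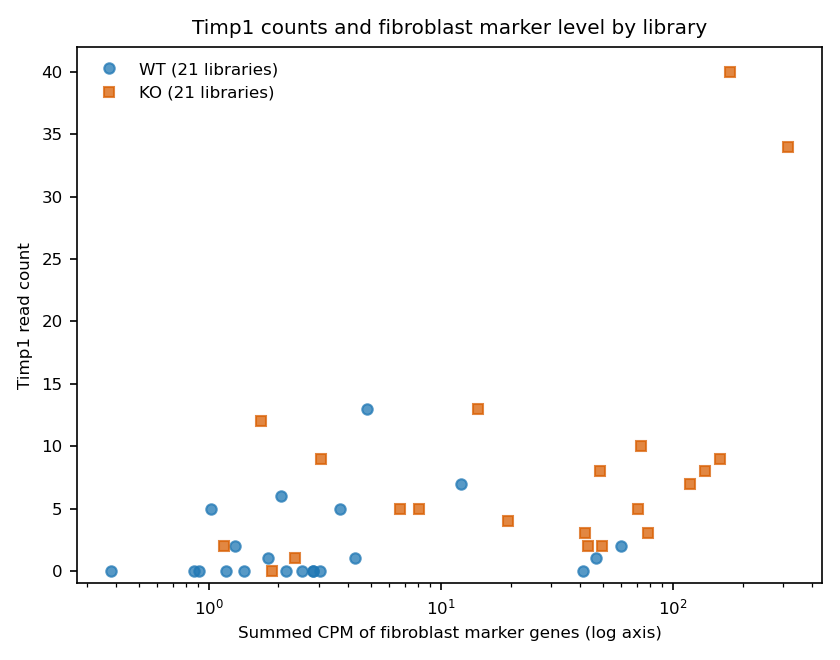
Timp1 counts (vertical axis) in each of the 42 libraries against the summed CPM of 7 fibroblast markers (horizontal log axis), WT and KO in different colours. The 2 libraries with the highest sums, 177 and 314 CPM, are both KO and hold 40 and 34 Timp1 counts.

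Adam8, a sheddase of cell surface proteins, lies on chromosome 7 (139978932 to 139992562, minus strand, ENSMUSG00000025473), with Gm16201 and Mir7062 overlapping it. It was the most abundant member per length of transcript and had the smallest ratio of highest to lowest group mean, 1.46 (1041 and 711 CPM). At 24 h it was at 858, 816 and 838 CPM in WT Control and 756, 756 and 739 CPM with LPS (log2 fold change -0.16, SE 0.05, adjusted p = 0.0103), and in KO at 840.0, 806 and 812 against 710.2, 713 and 710.7 CPM (-0.20, SE 0.05, adjusted p = 0.000921). The groups did not overlap in either genotype. At 2 h in WT it was at 976, 924 and 940.5 CPM in Control and 1095, 1008 and 1019.8 CPM with LPS (0.14, SE 0.05, adjusted p = 0.0463). This call was lost with DESeq2-type size factors (0.13), with no filter on low counts (0.13), in a fit of those groups alone (0.12), and without WT LPS 2h library 1 or 3 or WT Control 2h library 2 or 3 (0.10 to 0.15). In KO at 2 h the difference was 0.09 (adjusted p = 0.211). The effect at 24 h was lower than at 2 h by -0.29 in WT (SE 0.07, adjusted p = 0.00102) and by -0.30 in KO (SE 0.07, adjusted p = 0.000953).

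Levels of different genes were compared per kilobase of exon. In WT Control at 24 h the order was Adam8 with a mean of 181 CPM per kb, Timp2 with 67.4, Mmp12 with 57.3, Mmp14 with 46.8, Mmp19 with 16.4, Mmp13 with 8.98, Mmp9 with 6.82, Mmp27 with 3.93 and Timp1 with 0.119, and no neighbours overlapped over their 3 libraries. With LPS at 24 h Adam8 remained first at 162 CPM per kb, followed by Mmp14 at 142 and Mmp9 at 75.4. Timp2 came next at 30.99, then Mmp13 at 18.3, Mmp19 at 13.3 and Mmp12 at 13.04, the last pair overlapping, and Mmp27 at 3.26 and Timp1 at 1.42 stood at the end. Mmp9 thus went from 7th to 3rd and Mmp12 from 3rd to 7th. In KO with LPS at 24 h the first 5 by mean were the same, at 153, 139.7, 52.4, 27.3 and 15.6 CPM per kb. Mmp13, the last of these, overlapped Mmp12 at 14.01, which overlapped Mmp19 at 13.7. Timp1 at 3.79 and Mmp27 at 2.47 also overlapped.

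**Figure D4:**
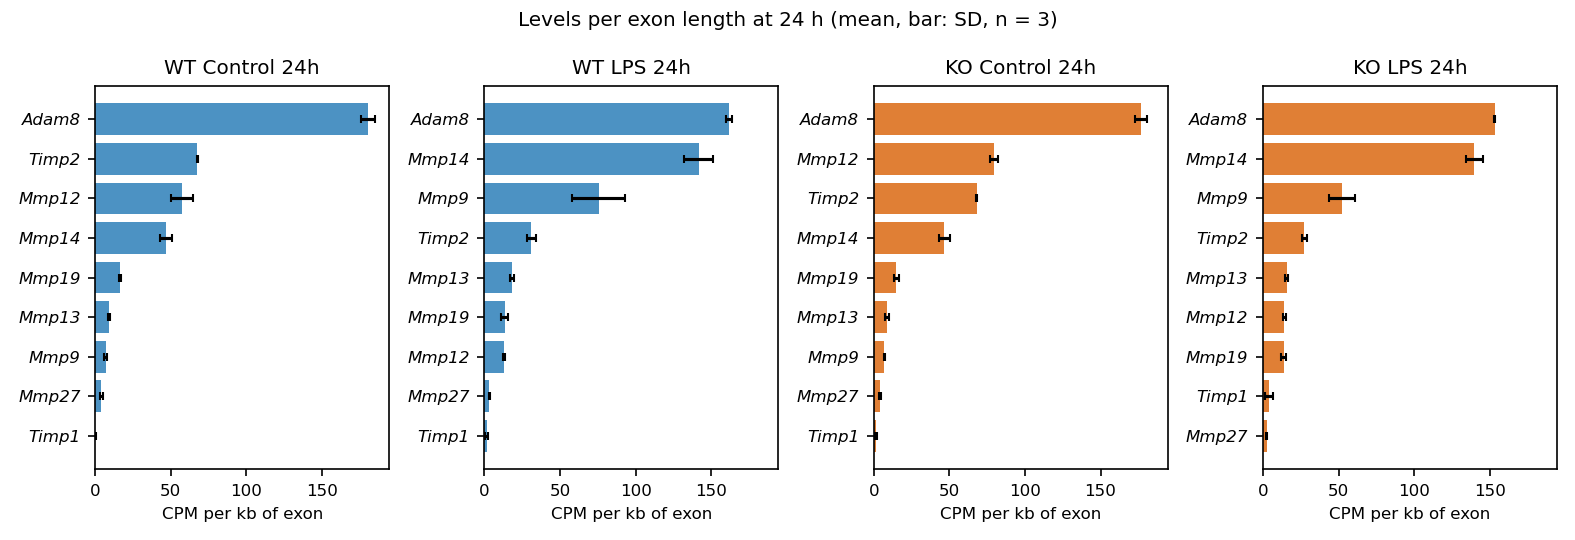
Mean level of the 9 genes in CPM per kilobase of exon in Control and LPS at 24 h in WT and KO, in descending order, with bars of 1 SD (n = 3). In WT, Mmp9 is at 6.82 in Control and 75.4 with LPS, and Mmp12 at 57.3 and 13.04.

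Palmitate moved few of these genes. In WT at 24 h 1 of 9 passed, where the test called 0.852% of all genes (0.671% higher), and no member passed in WT at 2 h (0.275% of all genes), KO at 2 h (0.112%) or KO at 24 h (0.877%). The gene was Mmp9, at 26.7, 19.5 and 26.2 CPM in Control and 40.6, 47.5 and 30.5 CPM with palmitate (log2 fold change 0.72, SE 0.18, adjusted p = 0.0386). All 3 palmitate libraries were above all Control libraries, but the call was lost without any WT Control 24h library or WT palmitate 24h library 1 or 2 (0.57 to 0.81). These groups did not overlap, in either direction, for 15.0% of all genes tested. In KO at 24 h Mmp9 was at 29.1, 29.5 and 30.4 CPM with palmitate (0.26, SE 0.19, adjusted p = 0.836). The lipid droplet gene Plin2 was at 835 CPM with palmitate against 209.8 CPM in Control at 24 h in WT.

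At an unadjusted p under 0.05, palmitate gave 0 members in WT and 1 in KO at 2 h (Mmp13), and 4 in each genotype at 24 h (Mmp9, Mmp12, Mmp13 and Adam8 in WT; Mmp13, Mmp27, Timp2 and Adam8 in KO). The share of all genes under that unadjusted threshold was not counted, and the palmitate shares given above are of adjusted calls. By adjusted p, DESeq2 called 0 at 2 h in WT and KO, 1 in WT and 0 in KO at 24 h. Mmp13 was at 17.1, 18.1 and 19.1 CPM with palmitate at 24 h in WT, below its 3 Control libraries (-0.42, adjusted p = 0.381), and at 19.5, 14.3 and 18.8 CPM in KO (-0.43, adjusted p = 0.403). Mmp12 in WT with palmitate at 24 h was at 395, 742 and 412 CPM, and its log2 fold change of 0.31 (adjusted p = 0.281) became -0.04 without library 2. The median log2 fold change of the 9 genes was -0.05 in WT and -0.12 in KO at 2 h, and 0.11 and -0.04 at 24 h, beside all-gene medians between -0.0035 and 0.

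Between genotypes, 7 of 63 tests passed, and 3 of 54 without the comparison at Control 0h. At Control 0h 4 of 9 passed (1 higher, 3 lower in KO) where 12.5% of all genes were called, 6.4% higher and 6.06% lower. The fibroblast marker sum there was at 0.905 to 1.42 CPM in WT and 43.1 to 70.7 CPM in KO, and its part was not tested. Timp2 was at 395, 441 and 394 CPM in WT and at 291, 335 and 300.5 CPM in KO (log2 fold change KO against WT -0.41, SE 0.07, adjusted p = 0.000137), with no overlap. Each of the other 3 calls was lost when 1 of several libraries was left out. Mmp13 was at 32.2, 22.4 and 22.9 CPM in WT and 15.3, 21.2 and 13.5 CPM in KO (-0.61, SE 0.17, adjusted p = 0.0108), a call lost without KO library 1 or 3 or WT library 1 (-0.56 to -0.44). Mmp19 was at 56.3, 48.0 and 54.0 CPM in WT and 80.1, 48.1 and 75.6 CPM in KO (0.36, SE 0.12, adjusted p = 0.0431), lost in a fit of those groups alone (0.37) and when any of its WT libraries or KO library 1 or 3 was left out (0.23 to 0.41). Adam8 was at 912, 934 and 858 CPM in WT and 824, 781 and 831 CPM in KO (-0.15, SE 0.05, adjusted p = 0.0418), lost with other size factors (-0.14), without the filter (-0.15), in a fit of those groups alone (-0.15), and without any KO library or WT library 1 or 2 (-0.17 to -0.12).

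At Control 2h, 2 of 9 passed, both higher in KO, against 0.49% of all genes (0.232% higher). Mmp12 was at 379, 389 and 431 CPM in WT and 559.7, 613 and 584 CPM in KO (0.55, SE 0.11, adjusted p = 0.0103), and Mmp14 was higher in KO by 0.34 (SE 0.07, adjusted p = 0.0226) with the values given above. Neither pair of groups overlapped, where 16.9% of all genes tested had no overlap. At Control 2h the fibroblast marker sum was at 73.3 to 118.9 CPM in KO and at 2.52, 60.1 and 2.82 CPM in WT, the granulocyte sum was at 43.6 to 84.3 CPM in KO and 11.9 to 18.001 CPM in WT, and their part in these calls was not tested. The Mmp12 call was lost without WT library 1 or 2 or KO library 2 (0.51 to 0.53) and the Mmp14 call without any of the 6 libraries (0.32 to 0.35). With LPS at 2 h, 1 of 9 passed against 0.465% of all genes (0.301% higher): Mmp12 was at 467, 463 and 445 CPM in WT and 623, 638 and 733 CPM in KO (0.54, SE 0.11, adjusted p = 0.0110), lost without WT library 3 or KO library 3; the granulocyte sum there was at 22.2 to 40.3 CPM in WT and 75.7 to 129 CPM in KO. In the other conditions Mmp12 was higher in KO by 0.09 at Control 0h, 0.42 with palmitate at 2 h (adjusted p = 0.112), 0.12 with palmitate at 24 h, 0.47 at Control 24h (adjusted p = 0.100) and 0.11 with LPS at 24 h, and none of these passed. Those with palmitate at 2 h and at Control 24h did pass without the filter (adjusted p = 4.03e-08 and 2.47e-09) and in a fit of those groups alone (0.000161 and 1.20e-07). They did not pass in DESeq2 (adjusted p = 0.151 and 0.273) or in edgeR with its size factors (0.107 and 0.0901).

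No member passed with palmitate at 2 h (0.146% of all genes), at Control 24h (0.12%), with palmitate at 24 h (0.0688%) or with LPS at 24 h (0.146%) by edgeR. At an unadjusted p under 0.05 there were 3, 2, 2 and 2 members in these conditions, and DESeq2 called 0 by adjusted p. The shares of all genes just given are of adjusted calls, and none was counted at the unadjusted threshold. Mmp9 with LPS at 24 h was lower in all 3 KO libraries than in all WT libraries (-0.52, SE 0.13) but did not pass (adjusted p = 0.114), except without the filter on low counts (adjusted p = 1.50e-06). Groups with LPS at 24 h did not overlap, in either direction, for 13.4% of all genes tested. The granulocyte marker sum was between 6.78 and 51.4 CPM in WT and between 21.02 and 129 CPM in KO libraries. Its part in these differences was not tested. The median log2 fold change of the 9 genes lay between -0.08 (LPS at 24 h) and 0.19 (LPS at 2 h) over the 7 conditions, and that of all genes between -0.0065 and 0.0052.

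**Figure D5:**
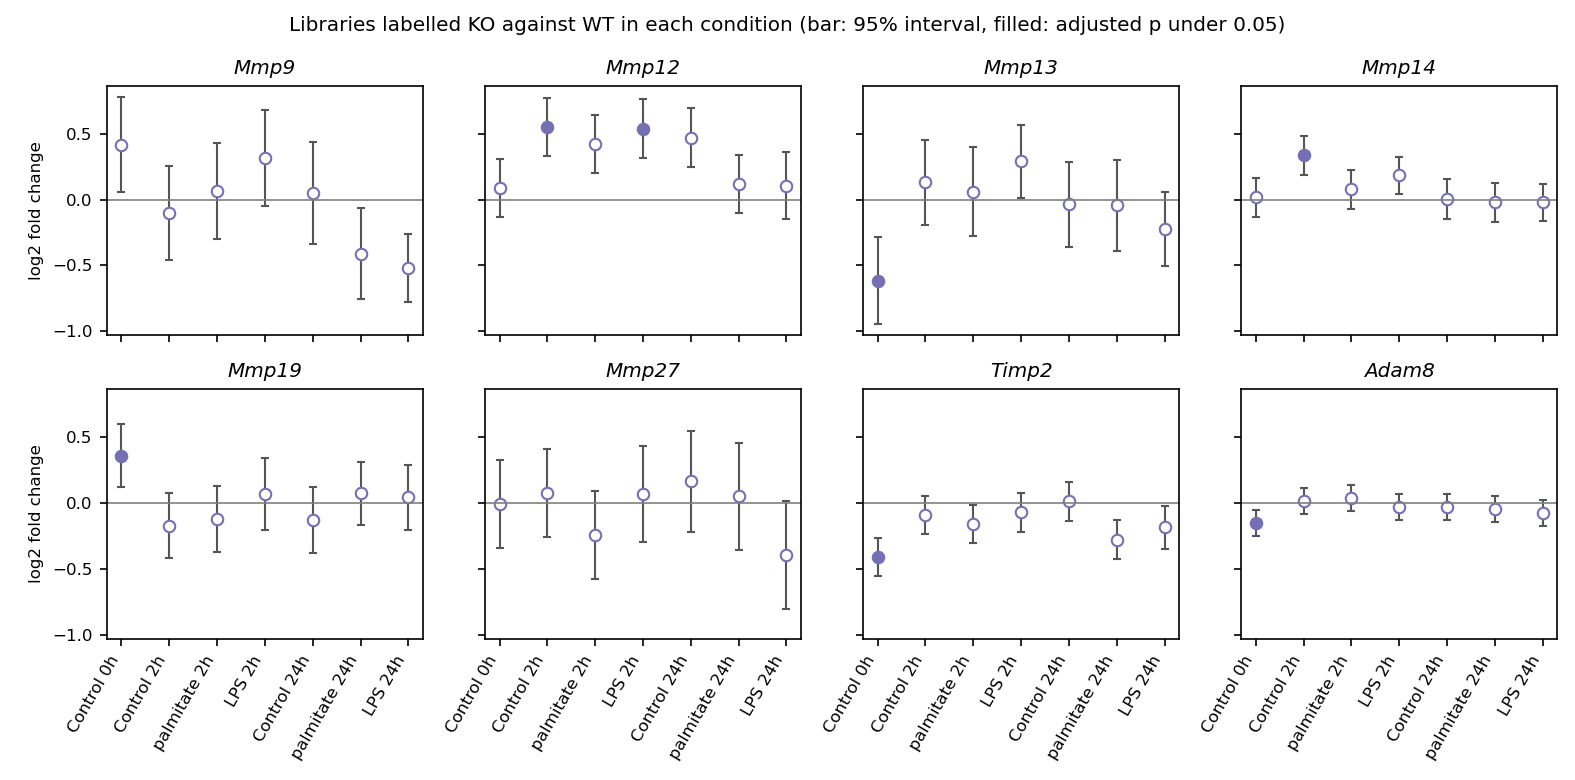
Log2 fold change of KO against WT for 8 of the 9 genes (Timp1 is left out) in each of the 7 conditions, with 95% intervals from edgeR; filled points passed the test. Mmp12 lies between 0.09 and 0.55 in all conditions, and Timp2 at Control 0h lies at -0.41.

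The difference between genotypes in the response to a treatment passed for none of the 9 genes in 4 comparisons, by edgeR or DESeq2; over all genes 0% was called for LPS at 2 h, 0.0086% for LPS at 24 h and 0% for palmitate at either time. At an unadjusted p under 0.05 edgeR gave 0 members for LPS at 2 h and 2 for LPS at 24 h (Mmp9 and Mmp12). For palmitate it gave 1 at 2 h (Mmp14, -0.26) and 2 at 24 h (Mmp12, -0.35, and Timp2, -0.29). Of all 11624 genes tested, 810 were under that unadjusted threshold for LPS at 2 h and 628 for LPS at 24 h. For palmitate 486 were under it at 2 h and 411 at 24 h. With LPS at 24 h, the effect in KO minus that in WT was -0.57 for Mmp9, a smaller rise (95% interval -1.04 to -0.11, adjusted p = 0.924), and -0.37 for Mmp12, a deeper fall (interval -0.71 to -0.03, adjusted p = 0.924), on the log2 scale. These 2 intervals lie on the same side of 0 as their estimates, and neither result survived correction over all genes. With DESeq2, 0 members had an unadjusted p under 0.05 in this comparison. The medians over the 9 genes were -0.0060 and -0.20 for LPS at 2 h and 24 h and -0.06 and -0.11 for palmitate, beside all-gene medians between -0.0048 and 0.0090.

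Members also differed between times in Control. From 0 h to 2 h 1 of 9 passed in WT, against 14.3% of all genes (5.85% lower), with Mmp12 falling from 535, 554 and 546 CPM to 379, 389 and 431 CPM (log2 fold change -0.45, SE 0.11, adjusted p = 0.00367). In KO 5 of 9 passed (4 higher, 1 lower) against 12.1% of all genes (6.5% higher, 5.59% lower). Mmp14 rose by 0.41 (adjusted p = 5.11e-05) and Adam8 by 0.24 (adjusted p = 0.000647). Mmp13 rose by 0.52 (adjusted p = 0.0337), Timp2 rose by 0.22 (adjusted p = 0.0453) and Mmp19 fell (-0.42, adjusted p = 0.0158). Each of these last 3 was lost without KO Control 0h library 1 or 3 or KO Control 2h library 1, Timp2 also without KO Control 2h library 2 or 3, and Mmp13 also in a fit of those groups alone. The KO Control 0h libraries also gave the genotype calls at Control 0h, where Mmp13, Timp2 and Adam8 were lower and Mmp19 higher in KO. Those calls and these, of opposite direction, are not independent. Whether these KO calls reflect time or the level of KO Control 0h was not tested.

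From 0 h to 24 h 3 of 9 fell in WT, against 12.1% of all genes (6.42% lower). Timp2 fell from 395, 441 and 394 CPM to 264, 261 and 263 CPM (log2 fold change -0.64, SE 0.07, adjusted p = 1.07e-08), Mmp27 fell by 0.77 (adjusted p = 0.00246) and Mmp12 by 0.39 (adjusted p = 0.0149). The Mmp27 call was lost without WT Control 24h library 3 (-0.58) and the Mmp12 call without WT Control 24h library 1 or 2. In KO 1 of 9 fell, against 8.17% of all genes (4.46% lower): Mmp27, by 0.60 (adjusted p = 0.0280), lost without the filter, in a fit of those groups alone and without KO Control 0h library 2 or KO Control 24h library 1 or 2. Timp2 in KO, at -0.22, lay near the limit (adjusted p = 0.0560). It passed without the filter, in a fit of those groups alone and in DESeq2 (adjusted p = 0.0328 to 0.0437). Mmp13 in KO, at 0.50 (adjusted p = 0.0652), passed without the filter (0.0334) and in DESeq2 (0.0472). Mmp9 (-0.40) and Mmp19 (-0.35) in KO also passed without the filter (adjusted p = 0.0331 and 0.0297). The median over the 9 genes was 0.07 in WT and 0.22 in KO at 2 h and -0.08 and -0.01 at 24 h, against -0.011 to 0.0067 for all genes. These comparisons share the Control libraries with the treatment and genotype comparisons above.

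Other genes of the pathway were read from lists by family. Of 17 other MMP genes 3 had enough counts to test. In WT with LPS at 24 h 2 of them rose: Mmp2, a gelatinase activated by MMP14, with means of 1.73 CPM in Control and 19.3 CPM with LPS (log2 fold change 3.47, SE 0.55, adjusted p = 8.03e-07), and the neutrophil collagenase Mmp8 (0.34, adjusted p = 0.0299), whose SD of 44.1 CPM with LPS exceeded the difference of the means (89.0 and 112.7 CPM). The fibroblast marker sum was at 1.03 to 4.80 CPM in these LPS libraries and at 2.81 to 46.5 CPM in their Control. In KO at 24 h 1 rose, and 0 were called at 2 h.

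Of 8 other inhibitors, activators and partners 5 were tested. In WT, Cd44, a hyaluronan receptor that anchors MMPs, rose at 2 h (1.18) and fell at 24 h (-0.65), and at 24 h Thbs1 (0.97) and Bsg, an inducer of MMPs also called CD147 (0.41), rose and Furin, a proprotein convertase that activates MMP14, fell (-0.83). In KO 3 rose at 2 h, and 1 rose and 2 fell at 24 h. With palmitate Thbs1 fell in WT at 2 h (-0.76) and Cd44 rose in WT at 24 h (0.31).

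Of 12 other ADAM genes and their regulators 9 were tested, and 3 rose at 2 h in WT while 4 rose and 1 fell in KO. At 24 h 3 rose and 2 fell in each genotype. Adam17, the TNF-converting enzyme, rose at 2 h in WT (0.32), as did its cofactor Rhbdf2 (1.14), which was still raised at 24 h (0.84). Adam10 fell at 24 h (-0.65), as did Rhbdf1 (-1.51), and Adam23 rose (2.66).

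Of 20 ADAMTS genes 19 were in the table and 4 were tested. With LPS at 2 h 1 rose in each genotype; Adamts4, an aggrecanase, had 0 counts in the 3 WT Control libraries and a mean of 7.15 CPM with LPS. At 24 h 0 were called in WT and 1 fell in KO. Of 8 genes of plasminogen activation, which can activate pro-MMPs through plasmin, 6 were tested and 5 rose at 2 h in each genotype. Serpinb2, an inhibitor of urokinase, went from 0.110 to 22.4 CPM in WT, and the urokinase receptor Plaur rose by 1.75. At 24 h Plau, urokinase itself, fell (-2.11) with Plaur (-0.97) while Serpinb2 was still raised in WT, and in KO 1 rose and 3 fell.

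The genes most like each member were taken as the 3 with the highest Pearson r of group-mean log2 CPM over the 14 groups, which share libraries and in which the LPS groups stand apart. For Mmp9 they were C3 (0.987), Shisa5 (0.981) and Pgap2 (0.978), for Mmp12 Ccnb2 (0.994), Top2a (0.993) and Cd9 (0.993), and for Timp2 Mrc1 (0.993), Aplp2 (0.991) and Selenop (0.990). For Mmp14 they were Clec4e (0.991), Rapgef2 (0.985) and Ccdc86 (0.983), and for Mmp13 Ctsc (0.973), Fam98b (0.969) and Snx20 (0.967). The first for Adam8 was Lmna (0.979), and the values were lower for Mmp27 with Tcn2 (0.951), Mmp19 with Zw10 (0.934) and Timp1 with Ghitm (0.905). Among the members themselves r was 0.919 for Mmp13 with Mmp14, 0.879 for Mmp12 with Timp2, -0.931 for Mmp9 with Mmp12 and -0.881 for Mmp9 with Timp2, as a description over 14 groups.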

How the data were processed

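Ribosome-depleted, stranded total RNA libraries were sequenced paired-end. Alignment was to mm10 with STAR 2.7.3a, and the authors deposited raw counts per gene, which they tested with DESeq2; fastp 0.19.11 and the build mm9 are also listed per the labels, the latter with no role. The annotation release and the use of strand in counting are not given in the sources used here. Symbols were matched through GENCODE M21 for 32620 of 37310 identifiers, and positions are on GRCm38.

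The deposited counts of all 42 libraries were fitted with 1 mean per group in edgeR 4.0.16 (limma 3.58.1, R 4.3.3), with TMM factors, filterByExpr (11624 genes kept) and the quasi-likelihood test over 25 contrasts. Benjamini-Hochberg adjustment ran over all tested genes, with 0.05 as the limit for a call. SE is the log2 fold change divided by the square root of F. CPM values are counts scaled to the library total with the TMM factors. Exact intervals (95%) and the floor of 3 counts cover counting error only.

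The columns name a group but no replicate, so library numbers follow column order and only name a library. The 9 genes and all gene lists were chosen with earlier results of these data known. All 9 genes are named for LPS against Control. In the other comparisons every member that passed is named, but only some of those that did not. From the other lists at most 2 called genes per direction are named for LPS in WT. They are those with the largest change among genes of a mean of at least 1 CPM. The genes named for palmitate from those lists were chosen after their values were seen. Alternatives were DESeq2 1.42.0, its size factors, no filter on low counts, a fit of the compared groups alone, the study's threshold for genotype (unadjusted p under 0.05 and absolute log2 fold change over 1, on edgeR's p) and each library left out. The fits were first run on simulated data with 200 changed genes. There edgeR recovered 78% of these and DESeq2 78.5%, and 6.6% and 7.1% of their calls were false. In a simulated comparison without change edgeR made 0 calls.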

Additional observations from a re-analysis of the deposited data

Results flagged for a closer look

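In both genotypes the LPS effect on several members differed between 2 h and 24 h, by edgeR's test of that difference on the log2 scale with adjustment over all genes. In WT 4 of 9 passed, where the test called 32.6% of all genes. The effect was larger at 24 h for Mmp9 (3.33, SE 0.25, adjusted p = 6.61e-16). It was lower for Mmp12 (-2.34, SE 0.17, adjusted p = 2.75e-16), Timp2 (-1.07, SE 0.11, adjusted p = 1.65e-11) and Adam8 (-0.29, SE 0.07, adjusted p = 0.00102).

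In KO 6 of 9 passed, against 33.4% of all genes. Mmp9 was again higher (2.33, SE 0.25, adjusted p = 5.55e-11). Mmp12 (-2.69, SE 0.17, adjusted p = 1.21e-18), Timp2 (-1.29, SE 0.11, adjusted p = 5.80e-14), Mmp13 (-0.88, SE 0.22, adjusted p = 0.00103), Adam8 (-0.30, SE 0.07, adjusted p = 0.000953) and Mmp27 (-0.73, SE 0.27, adjusted p = 0.0325) were lower. In each of the groups behind these values there were 3 libraries, and groups of 3 were not tested for a single library far from the others.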

How the results depend on the processing

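Of 49 results of single genes that passed with all libraries, 31 passed in every alternative fit and with every library left out, 18 were lost under at least 1 of these, and 0 changed sign. The alternative fits were DESeq2, its size factors, no filter and the compared groups alone. The study's threshold for genotype was not part of this count. With libraries left out in turn, the number of the 9 genes called lay between 19 and 22 of 36 tests for LPS (21 with all libraries), 0 and 2 of 36 for palmitate (1 with all), 4 and 8 of 63 for KO against WT (7 with all), 7 and 11 of 36 for time in Control (10 with all), 9 and 11 of 18 for the change of the LPS effect between times (10 with all), and was 0 throughout for the difference between genotypes in response. With no filter on low counts palmitate gave 2 calls and KO against WT 13; under the study's threshold KO against WT gave 4, all of Timp1, and without the comparison at Control 0h, an alternative chosen after seeing the data, it gave 3 because fewer tests remain. KO against WT gave 4 without KO Control 0h library 1 or 3 or WT Control 0h library 1. Palmitate gave 0 without any WT Control 24h library or WT palmitate 24h library 2, and 2 without WT palmitate 24h library 3. Apart from the fewer tests without Control 0h, the cause was not tested. The KO change of the LPS effect on Mmp27 was lost with no filter, in a fit of those groups alone and with 6 libraries left out in turn. Timp1 could not be fitted where its counts were filtered out of a fit of the compared groups alone. Depth limits Timp1, at 0 counts in 12 of 42 libraries, and Mmp27. No paired analysis was possible because the columns carry no replicate numbers, so the planned fit with the replicate number as a block was not run.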
